A study of Mus musculus with 28 samples.

Results

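Odz4 (now named Tenm4) encodes teneurin-4, and its surroundings on mouse chromosome 7 were examined as 1 region of 1.2 Mb, mm9 chr7:103000001-104200000. The region holds 6000 of the 13274547 bins of 200 bp in the deposited chromatin segmentations, 0.0452% of the 2654.91 Mb segmented. It was chosen on measured values: the window of 1 Mb from chr7:103000001 had, in wild-type cells, the highest U1 difference and the lowest U2 difference between the treatments named GS and NT among 2629 such windows, where U1 and U2 are chromatin states. Both differences had the same sign in the knockout. Those differences are given here as a description and were not tested.

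The cells were mouse embryonic fibroblasts (MEFs), primary connective tissue cells of strain 129s2 described as 14.5 day cells in the design text and used at passages 3 to 4. The SirT7-/- group (KO) lacks SIRT7, a sirtuin that works in the nucleus and removes acyl groups from proteins with NAD as cofactor, and was set against wild type (WT). Each genotype was studied in GS and in NT, which the labels do not spell out, although the title of the series concerns glucose starvation. The 4 groups were thus KO-GS, KO-NT, WT-GS and WT-NT, each with 1 segmentation made from 2 H3K27me3 and 2 mH2A1 ChIP libraries. 2 lists of SIRT7 peaks, GS and NT, came from WT cells. SIRT7 was not precipitated from KO cells in this series, so the loss of SIRT7 could not be checked in these files, and no fibroblast marker was measured.

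H3K27me3 is the mark that Polycomb repressive complex 2 lays down, often in broad blocks over developmental genes that a cell type keeps silent. mH2A1 is macroH2A1, precipitated here with an antibody against the splice form macroH2A1.1. It is a histone H2A variant with a large carboxy-terminal domain, which is also found in broad domains of repressed chromatin. Teneurins are large transmembrane proteins that bind partners on neighbouring cells. Teneurin-4 is best known from the nervous system, where it takes part in oligodendrocyte differentiation and the myelination of small axons.

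Each bin carries 1 of 4 states, U1 to U4. The sources used here do not give what each state means, or whether it was defined alike in all 4 segmentations, and the states are called by name. U1 also covers sequence that can hold no reads. U2, U3 and U4 together are called marked sequence. Each segmentation pooled its replicates, which leaves every value without a replicate error. The read depth is unknown, and a difference between 2 segmentations compares those segmentations, not the spread between cultures.

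RefSeq (GRCm38.p6) lists 2 starts for Tenm4, which are shown because transcription of the gene begins there. Both lie on the plus strand, at GRCm38.p6 chr7:96170994-96171293 and chr7:96211421-96211720, 40427 bp apart. Each sequence runs from 250 bases before to 50 after the start, with the dinucleotide CG, which reads alike on both strands, in capitals.
Tenm4 start 1: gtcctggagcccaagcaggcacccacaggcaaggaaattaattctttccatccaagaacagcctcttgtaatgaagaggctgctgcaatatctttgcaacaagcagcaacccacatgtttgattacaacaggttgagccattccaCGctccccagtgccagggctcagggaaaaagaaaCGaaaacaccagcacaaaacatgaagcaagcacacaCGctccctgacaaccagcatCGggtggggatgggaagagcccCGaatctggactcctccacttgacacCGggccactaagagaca
Tenm4 start 2: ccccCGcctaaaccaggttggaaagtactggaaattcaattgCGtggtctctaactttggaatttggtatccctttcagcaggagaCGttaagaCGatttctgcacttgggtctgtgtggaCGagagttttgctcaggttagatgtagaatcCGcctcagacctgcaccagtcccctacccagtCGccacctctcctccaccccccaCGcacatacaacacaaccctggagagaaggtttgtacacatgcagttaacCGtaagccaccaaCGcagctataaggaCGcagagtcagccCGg
The first start region held 6 CG and the second 12, against a median of 7 over 32851 mouse promoters of the same length, of which 94.6% held at least 1 CG. Their GC contents were 52% and 52.3%, close to the median of 52.7%. No annotation of the mm9 build was used here, so these starts were not placed in the segmentations, and the state over them was not analysed here. In the GRCm38.p6 gene order, Tenm4 spans 739.85 kb. Genes within it include the microRNA genes Mir708 and Mir6394 and the long noncoding RNA genes Gm15412 and Gm15413. The pseudogene Gm5037 precedes it, and before that lies the lncRNA gene Gm39049. The protein-coding gene that follows is Nars2, which encodes the mitochondrial asparaginyl-tRNA synthetase.

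The locus was chosen on U1 and U2, and U2 is described before U1 here. U2 covered 18.5% of the locus in WT-GS, against 44.0% in WT-NT, a difference of -25.5 percentage points. In the knockout it covered 19.2% in KO-GS, against 30.9% in KO-NT, a difference of -11.8 points. The 2 GS segmentations thus held nearly the same amount of U2, and the WT-NT one held the most. With 500 kb added on each side, the difference was -10.1 points in WT and -7.83 points in KO. Over the rest of chromosome 7, U2 covered 14.0% in WT-GS and 14.2% in WT-NT, and 12.5% in KO-GS and 11.1% in KO-NT, so the rest of the chromosome differed little in WT and in the other direction in KO.

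U1 and U3 both had higher shares in GS. U1 covered 61.2% of the locus in WT-GS, against 39.1% in WT-NT, and 59.8% in KO-GS, against 53.8% in KO-NT. U3 covered 19.1% in WT-GS, against 12.9% in WT-NT, and 18.8% in KO-GS, against 12.7% in KO-NT. In WT the U1 difference of 22.1 points was well above the U3 difference of 6.22 points, whereas in KO they were nearly equal, at 6.02 and 6.15 points. With 500 kb added on each side, the U1 difference was 8.86 points in WT and 5.15 points in KO, and the U3 difference 2.96 points in WT and 2.84 points in KO. U4 had the lowest share in all 4 segmentations, with 1.18% in WT-GS, 4% in WT-NT, 2.22% in KO-GS and 2.6% in KO-NT. All marked sequence together covered 38.8% of the locus in WT-GS, against 60.9% in WT-NT, and 40.2% in KO-GS, against 46.2% in KO-NT.

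**Figure D1:**
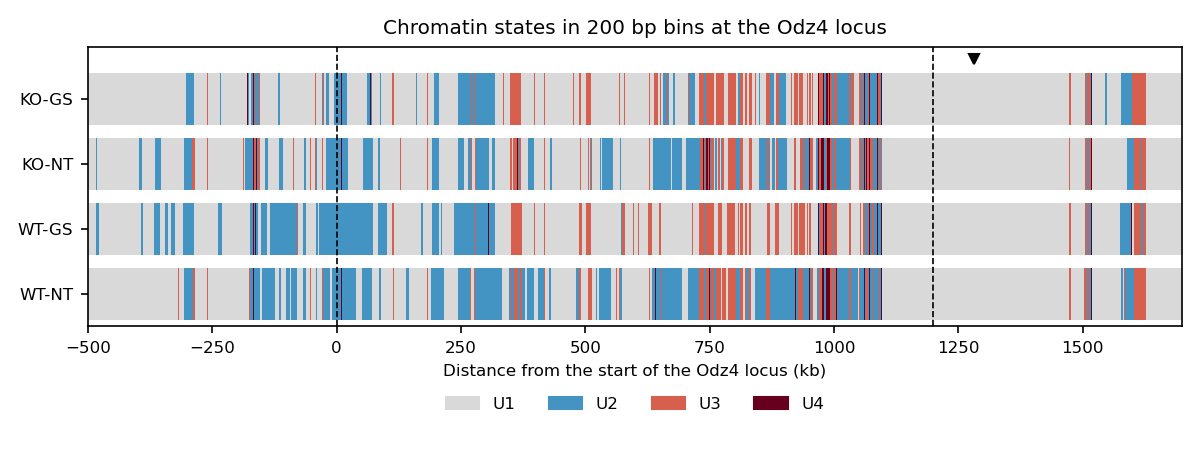
Chromatin states in 200 bp bins in the 4 segmentations, against distance from the start of the Odz4 locus in kb, with 500 kb added on each side. Dashed lines bound the locus and the triangle marks the nearest SIRT7 GS peak after it. The blue U2 blocks of WT-NT between 300 and 1100 kb are mostly grey U1 in WT-GS, with red U3 left between them.

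The lower U2 in GS was spread along the locus. In 24 windows of 50 kb, U2 was lower in WT-GS than in WT-NT in 19, higher in 3 and equal in 2. It was lower in KO-GS than in KO-NT in 15, higher in 4 and equal in 5. The longest unbroken row of windows with lower U2 in WT-GS took 16 windows, chr7:103300001-104100000. Across these 800 kb, U2 covered 6.63% in WT-GS, against 48.4% in WT-NT, and 16.7% in KO-GS, against 34.4% in KO-NT. U2 was thus lower in this stretch in WT-GS than in KO-GS, while KO-NT held less of it than WT-NT. The stretch was picked by its lower U2 in WT-GS, within a locus chosen for that difference. Nothing is read from the size of that difference or from its contrast with KO. In the longest such row for KO, chr7:103500001-104000000, U2 covered 13.0% in KO-GS, against 38.9% in KO-NT, and 2.6% in WT-GS, against 47.3% in WT-NT. In the same 800 kb, U1 covered 64.2% in WT-GS, against 27.6% in WT-NT, and U3 covered 27.9% in WT-GS, against 18.3% in WT-NT. In the knockout U3 covered 26.9% in KO-GS, against 17.7% in KO-NT.

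The U2 present in this stretch in GS was in few segments. WT-GS had 19 U2 segments there with 53 kb in all, against 75 segments with 387.4 kb in WT-NT. KO-GS had 35 segments with 133.8 kb, against 53 segments with 275.4 kb in KO-NT. The longest U2 segments left in WT-GS lay at the ends of the stretch, 8.6 kb at chr7:103305801-103314400 and 7 kb at chr7:104080601-104087600. In KO-GS the longest were inside it, among them 13.2 kb at chr7:103889801-103903000 and 12.8 kb at chr7:103708401-103721200.

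Single windows showed the contrast most plainly. The window from chr7:103650001 held 0% U2 in WT-GS, against 84.8% in WT-NT, and 26% in KO-GS, against 83.2% in KO-NT. This was the window with the lowest U2 difference in both genotypes. The window from chr7:103500001 held 0% in WT-GS, against 52% in WT-NT, and 0% in KO-GS, against 34.4% in KO-NT, so here both GS segmentations were without U2. The window from chr7:104000001 held 0% in WT-GS, against 75.6% in WT-NT, while KO-GS and KO-NT both held 54%.

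**Figure D2:**
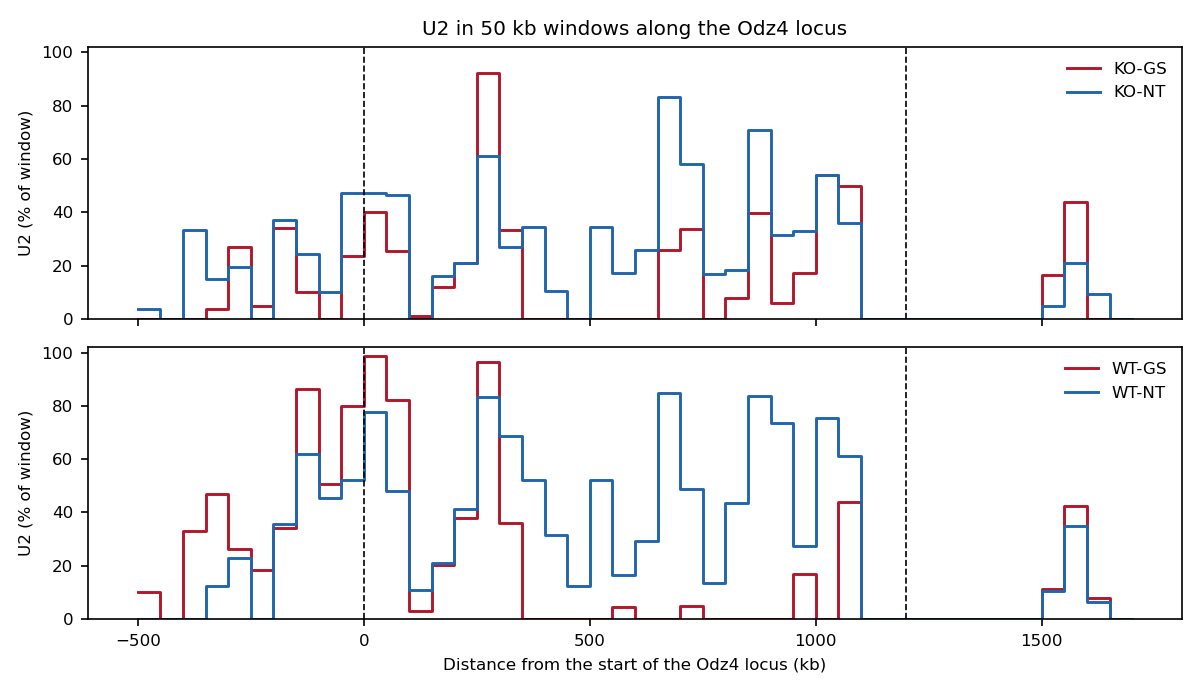
Share of each 50 kb window in U2 (%), against distance from the start of the Odz4 locus in kb, in KO (upper) and WT (lower), with GS in red and NT in blue and dashed lines at the ends of the locus. Between 300 and 1100 kb, the row picked for lower U2 in WT-GS, the WT-GS line lies below the WT-NT line in all 16 windows. At the start of the locus the WT-GS line lies above.

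Over the left end of the locus as a whole, U2 differed in the other direction in WT. The initial 300 kb, chr7:103000001-103300000, held 56.5% U2 in WT-GS, against 47% in WT-NT, and 32% in KO-GS, against 31.9% in KO-NT. The 500 kb just before the locus held 38.6% in WT-GS, against 23.0% in WT-NT, and 10.3% in KO-GS, against 19% in KO-NT. In the initial 300 kb, 3 of the 6 windows had higher U2 in WT-GS than in WT-NT, by 13.2 to 34 points, and the other 3 had lower U2, by differences of -0.8 to -7.6 points. In the window from chr7:103050001, U2 took 82% in WT-GS, against 48% in WT-NT, but 25.6% in KO-GS, against 46.4% in KO-NT. The window from chr7:103250001 had higher U2 in GS in both genotypes, with 92.4% in KO-GS, against 61.2% in KO-NT, and 96.4% in WT-GS, against 83.2% in WT-NT.

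The right end was at the same place in all 4 segmentations. The last marked base of the locus was 104097000 in WT-GS, 104097400 in WT-NT, 104097000 in KO-GS and 104097600 in KO-NT, a spread of 600 bp. The next marked base lay at 104473401 in all 4 segmentations. Between the 2, all bins were U1 in all 4, over 375.8 to 376.4 kb. The marked block ended there in the segmentations with little U2 in the 800 kb to its left and in those with much.

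Bin by bin, 2497 of the 6000 bins (41.6%) had another state in WT-GS than in WT-NT, against 9.54% of all bins of the genome. In the knockout 1521 bins (25.4%) differed between KO-GS and KO-NT, against a genome share of 11.2%. Since the locus was chosen on this contrast, the excess over the genome is a property of the choice. In WT, 60.9% of the differing bins were U1 in WT-GS and U2 in WT-NT, and in KO 45.9% were U1 in KO-GS and U2 in KO-NT.

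At the locus, a larger share of the U2 bins than of the U3 bins of NT had another state in GS. The locus was chosen on U1 and U2 and not on U3, so the choice itself favoured this order. Of the 2642 bins that were U2 in WT-NT, 57.6% were U1 in WT-GS, 31.8% were still U2 and 10.2% were U3. Over the whole genome 12.6% of such bins were U1 in WT-GS and 82.0% still U2. Of the 1856 bins that were U2 in KO-NT, 37.6% were U1 in KO-GS, 49.2% were still U2 and 11.9% were U3. Of the 772 U3 bins of WT-NT, 603 (78.1%) were U3 in WT-GS, close to the 80.4% of the whole genome. Of the 761 U3 bins of KO-NT, 641 (84.2%) were U3 in KO-GS, against 72.6% over the genome. Most U4 bins of WT-NT were U3 in WT-GS: of 240 in WT-NT, 153 (63.8%) were U3 in WT-GS and 52 (21.7%) were still U4, against 34.6% and 53.4% over the genome. In the knockout, 60 (38.5%) of the 156 U4 bins of KO-NT were U3 in KO-GS and 74 (47.4%) were still U4, against 19.3% and 63.2% over the genome.

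**Figure D3:**
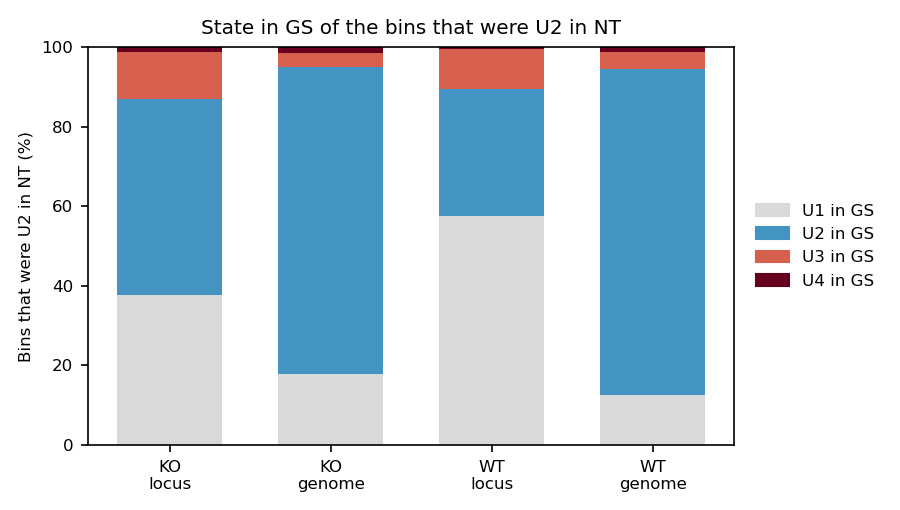
State in GS of the bins that were U2 in NT, as a percentage of those bins, at the Odz4 locus and over the whole genome, in KO and in WT. At the locus 37.6% of them were U1 in KO-GS and 57.6% in WT-GS, and over the genome 17.9% in KO-GS and 12.6% in WT-GS. The locus was chosen for its higher U1 and lower U2 in WT-GS.

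A total of 1638 bins were U2 in both NT segmentations, which sets KO and WT on the same bins. A bin that had another state in GS is counted as lost. Of these, 45.4% were lost in KO and 63.1% in WT. In all, 639 bins were lost in both, 105 in KO alone and 394 in WT alone, and 500 were U2 in all 4 segmentations. Counted as shares, 85.9% of the KO losses were also WT losses, and 61.9% of the WT losses were also KO losses. Over the genome, 28.1% of the KO losses were also WT losses, and 54.5% of the WT losses were also KO losses. At Odz4 the share lost was thus lower in KO than in WT. Over the genome it was higher in KO, where 14.9% of such bins were lost, against 7.69% in WT. Since the locus was chosen for its U2 loss in WT, nothing is read from the larger loss in WT or from the overlap. The same holds for their contrast with the genome.

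Across all 4 segmentations, 48% of the locus had the same state throughout, against 81.4% of the genome. U1 in all 4 took 31.7% of the locus, U2 in all 4 took 8.33% and U3 in all 4 took 7.52%. The most frequent mixed pattern was U2 in WT-NT alone, with U1 in the other 3, over 107.2 kb (8.93% of the locus, 1.21% of the genome). Next came U2 in both NT and U1 in both GS segmentations, over 100.2 kb (8.35% of the locus, 0.399% of the genome). U1 in WT-GS alone, with U2 in the other 3, took 70.6 kb (5.88% of the locus, 0.299% of the genome). In these 3 patterns WT was alike, and KO was U1 in both treatments, differed as WT did, or was U2 in both. All 3 hold the WT difference for which the locus was chosen, so nothing is read from their excess over the genome. The lower share with the same state throughout also follows in part from that choice.

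Examples of each pattern were found among the longest unbroken runs of differing bins. The WT comparison had 311 runs with a median of 400 bp, and its 10 longest held 163.4 of the 499.4 kb that differed. 9 of these 10 were U1 in WT-GS and U2 in WT-NT. The longest, 24.4 kb at chr7:103888801-103913200, was mostly U2 in both KO segmentations (55.7% in KO-GS and 72.1% in KO-NT). The next, 24 kb at chr7:103527801-103551800, was wholly U1 in KO-GS and 75.8% U2 in KO-NT, so KO differed as WT did. The run of 11.6 kb at chr7:103405601-103417200 was wholly U1 in both KO segmentations. The 1 run of the opposite kind, 11.8 kb at chr7:103039401-103051200, was U2 in WT-GS and U1 in WT-NT, and mainly U1 in both KO segmentations. In KO the longest run was 20.6 kb at chr7:103534601-103555200, U1 in KO-GS and U2 in KO-NT, which overlaps the second of the WT runs.

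U3 formed islands within the locus. The longest U3 segment of the locus was 23 kb in WT-GS, chr7:103349801-103372800. In WT-NT the same 23 kb was 61.7% U3, 25.2% U2 and 13.0% U4, and it was 89.6% U3 in KO-GS and 55.7% U3 in KO-NT. A stretch of 9.6 kb at chr7:103789401-103799000 was U3 in all 4. The median U3 segment was 1800 bp in WT-GS, against 1000 bp in WT-NT, and 1600 bp in KO-GS, against 1300 bp in KO-NT, so U3 in GS came in longer pieces.

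The neighbours of U3 differed too. The locus was chosen for higher U1 and lower U2 in WT-GS, which favours U3 borders with U1 there. No genome share of these borders was computed, and nothing is read from the contrast between WT and KO. In WT-GS, 83 of 134 U3 borders (61.9%) met U1 directly, against 31 of 194 (16.0%) in WT-NT. In KO-GS it was 64 of 160 (40%), against 44 of 156 (28.2%) in KO-NT. U4 was the other main neighbour, at 34.3% of the U3 borders in WT-GS, against 73.2% in WT-NT, and 48.1% in KO-GS, against 58.3% in KO-NT. U4 itself mainly bordered U3 and U2 in both WT segmentations, at 47.9% and 49.0% in WT-GS, against 53.0% and 45.1% in WT-NT. Most U3 borders in WT-GS met U1 with no U4 between.

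Marked sequence in runs of at least 5 kb had a lower total and a shorter median run in GS. Marked sequence is all that is not U1, and the locus was chosen for its higher U1 in WT-GS. The lower total thus largely restates that choice, which also took in the sign in KO. There were 20 runs of at least 5 kb in WT-GS, against 21 in WT-NT, and 21 in KO-GS, against 23 in KO-NT. In WT the order of the counts depended on the minimum length, with 31 runs of at least 2 kb in WT-GS, against 26 in WT-NT, and 11 of at least 10 kb in WT-GS, against 17 in WT-NT. The total at 5 kb was 418.6 kb in WT-GS, against 707.2 kb in WT-NT, and 436 kb in KO-GS, against 513.4 kb in KO-NT. The median run was 10.9 kb in WT-GS, against 27.2 kb in WT-NT, and 13.8 kb in KO-GS, against 20.4 kb in KO-NT. Most borders lay elsewhere in GS: 5 of 39 borders in WT-GS (12.8%) lay within 1 kb of a WT-NT border, and 15 of 41 in KO-GS (36.6%) lay within 1 kb of a KO-NT border. These are borders with U1, so their places also depend on the choice of the locus. No genome share of matched borders was computed, and nothing is read from the lower share in WT.

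Set beside each other within a treatment, the genotypes differed more in the amount of U2 in NT than in GS, and in the places of the states in both. In NT, U2 covered 30.9% in KO-NT, against 44.0% in WT-NT, and it was lower in KO-NT in 18 of 24 windows and higher in 4. In GS, U2 covered 19.2% in KO-GS, against 18.5% in WT-GS, and it was higher in KO-GS in 8 windows, lower in 8 and equal in 8. This difference of 0.617 points turned to -2.26 points over the initial 1 Mb and to -6.13 points with 500 kb added on each side. Even so, 1323 bins (22.1%) differed between KO-GS and WT-GS, against 10.1% of the genome, and 1493 (24.9%) differed between KO-NT and WT-NT, against 11.4% of the genome. These comparisons share the WT segmentations on which the locus was chosen. The near-equal GS totals thus covered sequence that was in part different. The longest such run in GS was 36 kb at chr7:103020801-103056800, U1 in KO-GS and U2 in WT-GS. Further right, 13.2 kb at chr7:103889801-103903000 and 11.6 kb at chr7:104018801-104030400 were the opposite, U2 in KO-GS and U1 in WT-GS. In NT the 5 longest runs were all U1 in KO-NT and U2 in WT-NT, the longest 15.4 kb at chr7:103024001-103039400.

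Set among 2188 other windows of 1.2 Mb on the autosomes and X, 0 had as high a U1 difference and 0 as low a U2 difference in WT. The locus was chosen for these WT differences in windows of 1 Mb, so this place was largely fixed in advance. The lowest U2 difference elsewhere was -22.6 points and the highest U1 difference elsewhere 18.2 points, against -25.5 and 22.1 points at Odz4. In the opposite direction, WT differences elsewhere reached 26.97 points for U2 and -26.97 points for U1, larger in size than those at Odz4. The KO differences were less extreme: 41 windows had a U2 difference at least as low as -11.8 points and 212 a U1 difference at least as high as 6.02 points. For the U3 difference, which comes from the same contrast as the choice of the locus, 7 windows in WT and 5 in KO reached the value at Odz4. Among the windows of 1 Mb by which the locus was chosen, the U2 difference was -25.96 points here (20.04% in WT-GS, against 46% in WT-NT). The window just behind it, mm9 chr6:143000001-144000000, had -16.4 points.

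**Figure D4:**
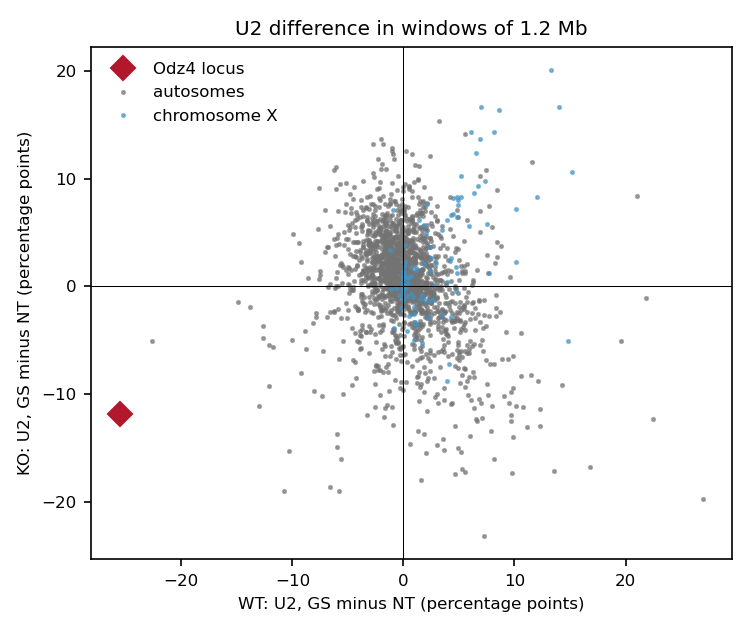
U2 share in GS minus that in NT, in percentage points, in KO (vertical) against WT (horizontal), for the Odz4 locus (red diamond) and 2188 other windows of 1.2 Mb on the autosomes (grey) and X (blue). The locus, chosen for its low U2 difference in WT, lies at -25.5 points there, lower than any other window. In KO it lies at -11.8 points, where 41 windows were as low or lower.

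SIRT7 peaks were not listed at the locus. It held 0 of the 2671 GS peaks, which allows a share of up to 0.112%, and 0 of the 90 NT peaks, which allows up to 3.33%. By length alone, the 164 GS peaks of chromosome 7 correspond to 1.29 in 1.2 Mb, so 0 is little below the number that the chromosome's average gives. The nearest GS peak after the locus, chr7:104281859-104282952 with a deposited score of 684, lay 81.9 kb beyond it, in U1 in all 4 segmentations and at least 184.2 kb from marked sequence. The nearest GS peak before it, chr7:102088264-102089018 with a score of 860, lay 911 kb away, in U2 in WT-GS and in U1 in the other 3. The gap between these 2 peaks was 2.19 Mb, and 300 of 2253 gaps between neighbouring GS peaks on the autosomes were at least as long. In the NT list the nearest peak, chr7:105208417-105208643, lay 1008 kb after the locus. The U2 differences at Odz4 therefore lay in sequence with no listed SIRT7 peak in either treatment.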

How the data were processed

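ChIP-seq of H3K27me3 and mH2A1 (KO and WT MEFs, GS and NT) and of SIRT7 (WT) was processed by the authors. Tools listed without roles in the submitters' processing notes are MACS 1.4.2, deepTools 2.4.2, Bowtie, Trimmomatic 0.36, SAMtools 0.1.19 and FastQC 0.11.3, with the builds hg19 and mm9. The deposited segmentations, 1 per genotype and treatment, give 1 of 4 states per 200 bp bin. The sources used here do not name the segmentation tool. The deposited SIRT7 lists, 1 per treatment, carry a peak score by the authors of unstated origin, which served only to describe and rank peaks.

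From these files, state shares, bins that differed, runs, borders and peak positions were computed with Python 3.11.15 and numpy 2.4.6, and the counting steps were tested on simulated data. The groups came from the sample titles. Replicates were pooled before deposit, so no test was run and no comparison has a replicate error. Read totals were not given, so the depth is unknown. The limit on a count of 0 is 3 counts of the total and covers counting error only. The locus and the steps were chosen with earlier results of these data known. Runs were named by length (the 10 longest in WT, the 5 longest in each other comparison), and peaks by nearness. Alternatives were other bin sizes, joined short segments, other windows, marked against U1, peaks by score or midpoint and other minimum lengths. Input libraries were not used here.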

Additional observations from a re-analysis of the deposited data

Results flagged for a closer look

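In 2 of the 24 windows of 50 kb at Odz4, the U2 difference between GS and NT had opposite signs in WT and KO, by over 10 percentage points in each. In the window from chr7:103050001, GS minus NT was -20.8 points in KO and 34 points in WT. In the window from chr7:104050001, which contains the last marked base of the locus, it was 14 points in KO and -17.2 points in WT. The same was seen outside the locus, in some windows of the 500 kb before it and not in others. From chr7:102600001 the difference was -33.2 points in KO and 33.2 points in WT. From chr7:102950001 it was -23.6 points in KO and 28 points in WT. The share of such windows over the genome was not computed, so the pattern is not particular to Odz4 on these values. Each value rests on 1 pooled segmentation per group, so the difference between the genotypes was not tested.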

How the results depend on the processing

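Widening the locus by 500 kb on each side moved the U2 difference between GS and NT to -10.1 points in WT and -7.83 points in KO, and that between KO and WT in NT to -8.45 points, and it brought 1 GS peak into the region. The small U2 difference between KO and WT in GS (0.617 points) reversed to -2.26 points in the initial 1 Mb and to -6.13 points in the widened locus. With it, the U1 difference between KO and WT in GS reversed to 1.6 and 5.12 points under these settings. The U3 difference between KO and WT reversed to 0.217 points in GS with segments under 1 kb joined, and in the widened locus to 0.418 points in GS and 0.545 points in NT. The U4 difference between GS and NT in KO reversed to 0.167 points in 1 kb bins and 0.217 points with short segments joined. With a minimum length of 2 kb, marked runs numbered 31 in WT-GS, against 26 in WT-NT, and 33 in KO-GS, against 34 in KO-NT. With 10 kb they numbered 11 in WT-GS, against 17 in WT-NT, and 16 in KO-GS, against 17 in KO-NT, and 4.76% of the WT-GS borders lay near a WT-NT border. The cause of these shifts was not tested. Of the main values, 56 recomputed values kept their direction and size, 8 moved and 2 reversed, and of the other values 82 did, 59 moved and 7 reversed. The U2 differences between GS and NT were below 0 in both genotypes under the 4 alternatives run for them. These signs were part of the choice of the locus, and the initial 1 Mb is the window of that choice. The alternatives are therefore no independent check of the sign. No paired analysis was possible because the replicates were pooled before deposit.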
